A study of Homo sapiens with 6 samples.

Results

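The 10 genes described here are the 8 genes that encode the condensin I and condensin II complexes, together with TOP2A and MKI67, which encode the other main proteins of mitotic chromosome structure. They were chosen by symbol, with earlier results of these data known, and each was found as a single row among the 63009 genes read from the expression table. Gene expression was measured by RNA-seq of poly(A) RNA in 6 libraries prepared from ERRAS cells in mitosis, 3 of uninduced cells (control mitotic cells) and 3 of cells in which RasV12 had been induced for 4 days with 100 nM tamoxifen (Ras-induced mitotic cells). That agent and dose are those of the labels, whereas the methods name 4OHT and give its dose per volume in ng. ERRAS cells are early-passage IMR90, a line of human fetal lung fibroblasts, carrying a retroviral construct that encodes oncogenic H-RasV12 fused to the ligand-binding domain of the estrogen receptor, and both groups carry it. Both groups were also held in mitosis with 1 µM DME, an inhibitor of the spindle kinesin Eg5, and only the detached cells were collected, of which the submitters counted more than 90% in mitosis. The comparison asks whether the genes that build compact mitotic chromosomes are expressed at another level when Ras-induced cells enter mitosis.

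Condensins are ring-shaped complexes that fold chromatin into loops and so shape the rod-like mitotic chromosome. Both complexes share the ATPases SMC2 and SMC4. Condensin I adds the kleisin NCAPH and the HEAT-repeat subunits NCAPD2 and NCAPG, and condensin II adds NCAPH2, NCAPD3 and NCAPG2. Condensin II is nuclear throughout the cell cycle and acts from prophase, whereas condensin I reaches the chromosomes after the nuclear envelope has broken down. TOP2A, the topoisomerase IIα of proliferating cells, passes DNA strands through each other and works with condensin on the chromosome axis. MKI67 encodes Ki-67, the proliferation marker that coats mitotic chromosomes and keeps them apart. Many genes of this kind peak in G2 and mitosis through promoter elements read by the DREAM and MYB-MuvB complexes, the cell cycle homology region (CHR) and the CCAAT box.

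The promoters of 5 genes are shown because they place an altered gene beside one whose level was not called altered: NCAPD2 of condensin I beside its condensin II counterpart NCAPD3, NCAPH as the condensin I subunit with the smallest difference, and TOP2A and MKI67. Each line gives the 250 bases before an annotated start, 5′ to 3′ on the gene's strand, from RefSeq on GRCh38.p14, with capitals on matches to the CHR (TTTGAA or TTCGAA), the CCAAT box (CCAAT) or E2F sites (TTTCCCGC, TTTGGCGC, TTTCGCGC or TTTGCCGC), on either strand. The stretches are chr12:6493852-6494101 on the plus strand for NCAPD2, chr11:134223968-134224217 on the minus strand for NCAPD3 (the second of its starts, shown because it holds matches), chr2:96335516-96335765 on the plus strand for NCAPH, chr17:40417897-40418146 on the minus strand for TOP2A and chr10:128126424-128126673 on the minus strand for MKI67.
NCAPD2: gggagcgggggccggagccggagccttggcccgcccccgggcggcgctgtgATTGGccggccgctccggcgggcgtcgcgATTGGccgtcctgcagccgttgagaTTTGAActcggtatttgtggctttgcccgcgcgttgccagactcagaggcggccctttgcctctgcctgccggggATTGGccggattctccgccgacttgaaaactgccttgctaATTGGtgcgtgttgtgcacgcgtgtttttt
NCAPD3: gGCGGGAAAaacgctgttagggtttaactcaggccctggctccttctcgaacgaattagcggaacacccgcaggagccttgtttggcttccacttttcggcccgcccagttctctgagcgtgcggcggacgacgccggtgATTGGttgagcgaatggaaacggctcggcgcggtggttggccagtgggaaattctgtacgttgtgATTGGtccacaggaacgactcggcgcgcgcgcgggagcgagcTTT
NCAPH: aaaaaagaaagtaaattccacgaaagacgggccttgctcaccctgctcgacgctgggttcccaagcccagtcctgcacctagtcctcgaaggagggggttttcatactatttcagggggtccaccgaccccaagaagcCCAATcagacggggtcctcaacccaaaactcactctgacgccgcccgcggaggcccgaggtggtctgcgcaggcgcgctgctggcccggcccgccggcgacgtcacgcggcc
TOP2A: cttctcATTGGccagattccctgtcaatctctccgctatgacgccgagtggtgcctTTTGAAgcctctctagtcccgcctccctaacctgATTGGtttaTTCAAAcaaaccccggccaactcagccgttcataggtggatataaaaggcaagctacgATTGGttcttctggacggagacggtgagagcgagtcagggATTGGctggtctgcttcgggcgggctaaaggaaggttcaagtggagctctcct
MKI67: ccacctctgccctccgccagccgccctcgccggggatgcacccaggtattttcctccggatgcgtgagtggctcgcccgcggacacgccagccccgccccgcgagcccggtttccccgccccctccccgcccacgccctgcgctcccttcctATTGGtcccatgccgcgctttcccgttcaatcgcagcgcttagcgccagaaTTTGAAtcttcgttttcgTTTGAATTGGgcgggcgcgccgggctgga

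The NCAPD2 stretch held 1 CHR and 4 CCAAT boxes, and that of TOP2A held 2 and 4. The MKI67 stretch held 2 of each, and its second CHR and second CCAAT box share letters. NCAPD3, which was not altered, held 2 CCAAT boxes and the only E2F match among these genes at the start shown, where a CHR also crosses the start, so that only its first letters stand in capitals at the end of the stretch. The other NCAPD3 start held none of these matches and NCAPH held 1 CCAAT box and no CHR. RefSeq promoters of 300 bases (250 before and 50 after the start) were matched for 9 of the 10 genes, at 12 starts, the exception being NCAPH2. A CHR was found at 8 of the 12 starts (66.7%), against 16.4% of all 35116 promoters of that length and 66% of the 50 promoters of other G2/M genes (the G2/M list of Seurat without the genes described here). A CCAAT box was found at 41.7% of the 12, against 34.6% of all promoters and 68% of those of the G2/M genes, and an E2F match at 8.33%, against 3.31% and 8%. Each of these matches is a run of letters and no measurement of binding.

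Expression was deposited as FPKM, which scales fragments for transcript length and for the size of the library, so levels can be set side by side between genes. Values were compared as log2(FPKM + 1) in limma, a linear model that shares information on the spread across genes, for the 13993 genes averaging 1 FPKM or more. A gene was called altered when its p, adjusted by the Benjamini-Hochberg method, was 0.05 or less. This held for 2336 genes, of which 1543 were higher in Ras-induced cells, and the median difference of all tested genes was 0.10 on the log2 scale. Depth was estimated only in relative terms, from ratios between libraries among genes low in both, since FPKM holds no read counts. Relative to the first control library the estimate was 0.847 to 1.17 in the other libraries. The alignment statistics that the paper cites were not used. HRAS, counted from the endogenous gene and possibly from the construct, rose from 1164 ± 20.3 to 1586 ± 226.5 FPKM (SD, n = 3 in each group; log2 fold change 0.44, limma adjusted p = 0.0431), and of 8 ERK target genes DUSP4, DUSP5, DUSP6, SPRY2 and SPRY4 rose, FOSL1 fell, and ETV4 and ETV5 were not altered. All 10 fibroblast markers were detected at 1 FPKM or more, with a summed level of 5993 to 7088 FPKM in control and 4541 to 6045 FPKM in Ras-induced libraries. Of 6 endothelial markers only TEK reached a mean of 1 FPKM and PECAM1 was at 0 throughout, and the summed level of the list was 14.7 to 16.6 FPKM in control and 4.85 to 5.41 FPKM in Ras-induced libraries. Of 6 epithelial markers 4 reached a mean of 1 FPKM, and none of 6 haematopoietic markers did. The part of these markers in the results was not tested. The study states that the experiment was repeated independently, but the labels do not tie the libraries to separate cultures, so the p-values measure the spread between these libraries, which may in part be technical. An exact test of 3 libraries against 3 cannot go below p = 0.1.

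Expression of the condensin genes, TOP2A and MKI67 was lower in Ras-induced than in control mitotic cells for most of the list. In limma, 6 of the 10 were altered, all of them lower: SMC2, SMC4, NCAPD2, NCAPG2, NCAPH2 and TOP2A. Among all tested genes 5.67% were altered and lower, and 11% were altered and higher. NCAPG and MKI67 were not altered, though each had all 3 Ras-induced values below all 3 control values, and NCAPH and NCAPD3 had overlapping groups. In 8 of the 10, then, every Ras-induced value lay below every control value, an ordering found in 12.8% of all tested genes. The log2 fold change had a negative sign in all 10, except that NCAPG, NCAPH and NCAPD3 turned positive under a scaling to G2/M genes and NCAPD3 also without control library 2 or 3 or Ras-induced library 2 (up to 0.029), and a median of -0.46, against 0.10 for all tested genes. The count of 6 rests on several libraries. It was 2 (SMC2 and NCAPG2) without control library 1, control library 2 or Ras-induced library 3, 4 without Ras-induced library 1 or 2, and 6 without control library 3, when MKI67 took the place of TOP2A. Libraries are bulk RNA, so fewer cells at the stage that expresses these genes and less RNA per cell cannot be told apart. In both groups more than 90% of the collected cells were counted in mitosis, and the share of cells at each stage was not tested.

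**Figure D1:**
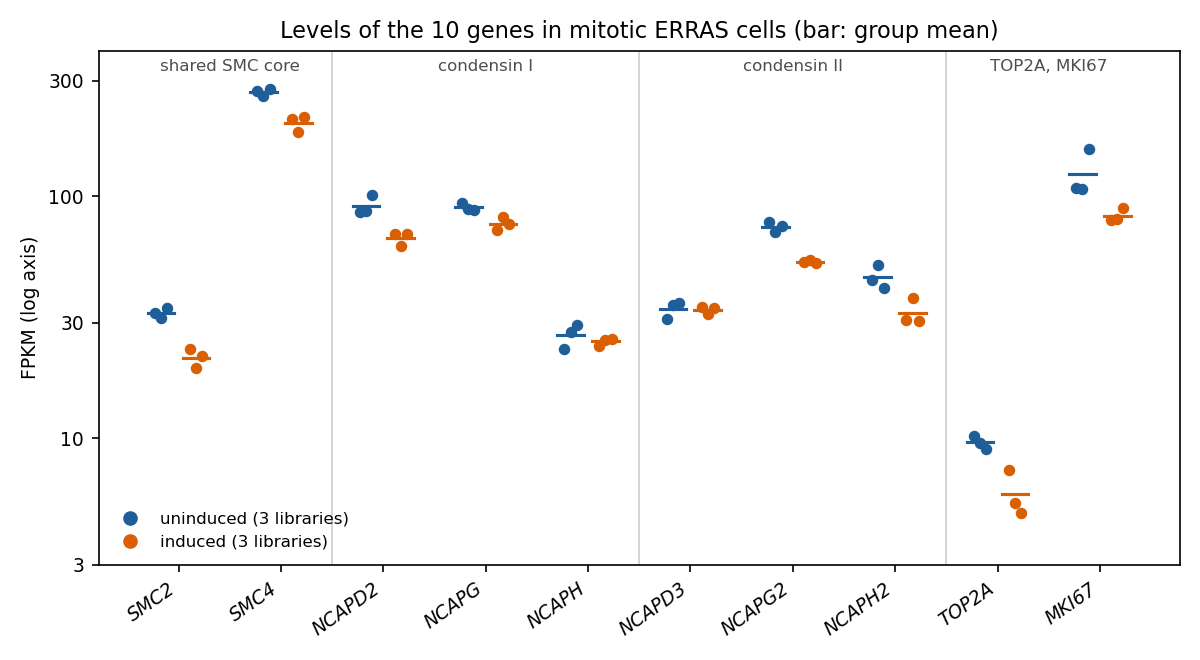
FPKM (log axis) of the 10 genes in the 3 control (uninduced, blue) and 3 Ras-induced (orange) libraries, with a point for each library and a bar at the mean of each group. SMC4 is the highest in every library and TOP2A the lowest, and only NCAPH and NCAPD3 have overlapping groups.

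The shared ATPases were both lower. SMC2 was measured at 33.0, 31.4 and 34.5 FPKM in the control libraries, against 23.4, 19.5 and 21.8 FPKM after Ras induction, so the groups stood well apart. Its mean fell from 33.0 ± 1.58 to 21.6 ± 1.95 FPKM (SD, n = 3 each), a log2 fold change of -0.59 (SE 0.09, limma adjusted p = 0.0102). SMC2 has its gene at chr9:106856541-106903700 on the plus strand of GRCh37, where no other annotated gene overlaps it. SMC4 was far more abundant, at 273, 259 and 277 FPKM in the control libraries and 209, 185 and 212 FPKM in the Ras-induced libraries. Again the groups did not overlap, and the mean fell from 269.9 ± 9.22 to 202 ± 14.6 FPKM, a log2 fold change of -0.42 (SE 0.08, limma adjusted p = 0.0185). SMC4 lies at chr3:160117062-160152742 on the plus strand and shares 1553 exonic bases with TRIM59 on the other strand, and the library kit named in the labels is not described as stranded. TRIM59, a ubiquitin ligase, itself fell from 80.9 to 52.0 FPKM (limma adjusted p = 0.00597), and reads of the shared bases cannot be assigned to either gene. A further 243 are shared with IFT80 on the other strand (17.1 and 19.4 FPKM, limma adjusted p = 0.184). Both ATPases are present in equal numbers in each complex, a trait of the proteins that RNA levels do not measure. The FPKM of SMC4, which may include reads of the bases shared with TRIM59, was 8.29, 8.27 and 8.02 times that of SMC2 in the control libraries. In the Ras-induced libraries it was 8.92, 9.51 and 9.73 times that of SMC2. The ratio was higher in each Ras-induced library than in any control library, by 0.20 on the log2 scale.

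Of the 3 subunits of condensin I, NCAPD2 was altered and lower, and NCAPG was too after quantile, upper-quartile or TPM scaling but not on the deposited scale. NCAPD2, a HEAT-repeat subunit, stood at 86.5, 87.3 and 101 FPKM in the control libraries against 69.6, 62.2 and 69.6 FPKM after Ras induction. Without overlap between the groups, its mean fell from 91.6 ± 8.18 to 67.2 ± 4.27 FPKM (log2 fold change -0.44, SE 0.09, limma adjusted p = 0.0247). The gene, at chr12:6602522-6641121 on the plus strand, shares 383 exonic bases with MRPL51 on the other strand, whose level was 158.8 FPKM in control and 189.8 FPKM in Ras-induced cells (limma adjusted p = 0.0996). NCAPG, the other HEAT-repeat subunit, was measured at 93.9, 89.0 and 87.9 FPKM in control and at 72.4, 81.9 and 76.6 FPKM in Ras-induced libraries. Each Ras-induced value was below each control value, but the difference of -0.23 on the log2 scale (95% confidence interval -0.41 to -0.05) did not pass the adjusted threshold (limma adjusted p = 0.0877). NCAPG lies at chr4:17812602-17846488 on the plus strand and shares 1634 exonic bases with LCORL on the other strand, whose level was 15.5 FPKM in control and 11.6 FPKM in Ras-induced cells (limma adjusted p = 0.0695). NCAPH, the kleisin that closes the ring of condensin I, was measured at 23.5, 27.5 and 29.5 FPKM in control and at 24.1, 25.6 and 25.8 FPKM in Ras-induced libraries. Its groups overlapped, since control library 1 was the lowest of the 6, and the difference was -0.08 on the log2 scale with an interval from -0.33 to 0.16 (limma adjusted p = 0.597). NCAPH lies at chr2:97001504-97042829 on the plus strand with no overlapping gene.

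Of the subunits of condensin II, NCAPG2 and NCAPH2 were altered and NCAPD3 was not, whereas after scaling to G2/M genes only NCAPD3 was called, as higher, as were 47.1% of all tested genes. NCAPG2, a HEAT-repeat subunit, had the lowest adjusted p of the 10 genes. It was measured at 78.3, 71.2 and 75.1 FPKM in control and at 53.4, 54.5 and 52.8 FPKM in Ras-induced libraries. The Ras-induced values lay close together and well below the controls, and the mean fell from 74.9 ± 3.54 to 53.6 ± 0.841 FPKM (log2 fold change -0.48, SE 0.07, limma adjusted p = 0.00882). NCAPG2 lies at chr7:158423861-158497495 on the minus strand with no overlapping gene. NCAPH2, the kleisin of condensin II, was more variable, at 45.2, 52.1 and 41.6 FPKM in control and 30.7, 37.8 and 30.5 FPKM in Ras-induced libraries. The highest Ras-induced library remained below the lowest control library, and the mean fell from 46.3 ± 5.32 to 33.0 ± 4.19 FPKM (log2 fold change -0.48, SE 0.12, limma adjusted p = 0.0452). NCAPH2, at chr22:50946653-50963209 on the plus strand, shares 857 exonic bases with SCO2 on the other strand, whose level was 10.8 FPKM in control and 15.9 FPKM in Ras-induced cells (limma adjusted p = 0.0638), and 855 with a lncRNA on the same strand that was not analysed here. NCAPD3, the HEAT-repeat subunit that corresponds to NCAPD2, was measured at 31.1, 35.6 and 36.1 FPKM in control and at 34.8, 32.5 and 34.6 FPKM in Ras-induced libraries. Its groups overlapped fully, and the difference was -0.01 on the log2 scale with an interval from -0.22 to 0.20 (limma adjusted p = 0.955). NCAPD3 lies at chr11:134020008-134095398 on the minus strand and shares 1889 exonic bases with JAM3 on the other strand, whose level was 38.7 FPKM in control and 40.8 FPKM in Ras-induced cells. It also shares 249 with VPS26B (14.04 and 17.7 FPKM, limma adjusted p = 0.0506) and 96 with a lncRNA whose level was under 1 FPKM, both on the other strand.

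TOP2A, whose level was low, was altered and lower. It was measured at 10.3, 9.56 and 8.99 FPKM in control and at 7.36, 5.41 and 4.93 FPKM in Ras-induced libraries. All Ras-induced values lay below the controls, and the mean fell from 9.60 ± 0.637 to 5.90 ± 1.29 FPKM (log2 fold change -0.63, SE 0.15, limma adjusted p = 0.0339). Adding 1 to the FPKM before taking logs makes the change of a gene this low look smaller. TOP2A lies at chr17:38544777-38574148 on the minus strand, and no gene shares its exons. MKI67 was measured at 108, 107 and 156 FPKM in control and at 80.2, 80.6 and 89.1 FPKM in Ras-induced libraries. Control library 3 stood well above the other controls, and the difference of -0.54 on the log2 scale (95% confidence interval -0.92 to -0.17) did not pass the threshold (limma adjusted p = 0.0586). Without that library the difference was smaller, -0.37, and passed it (limma adjusted p = 0.0347). MKI67 lies at chr10:129894923-129924687 on the minus strand with no overlapping gene.

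**Figure D2:**
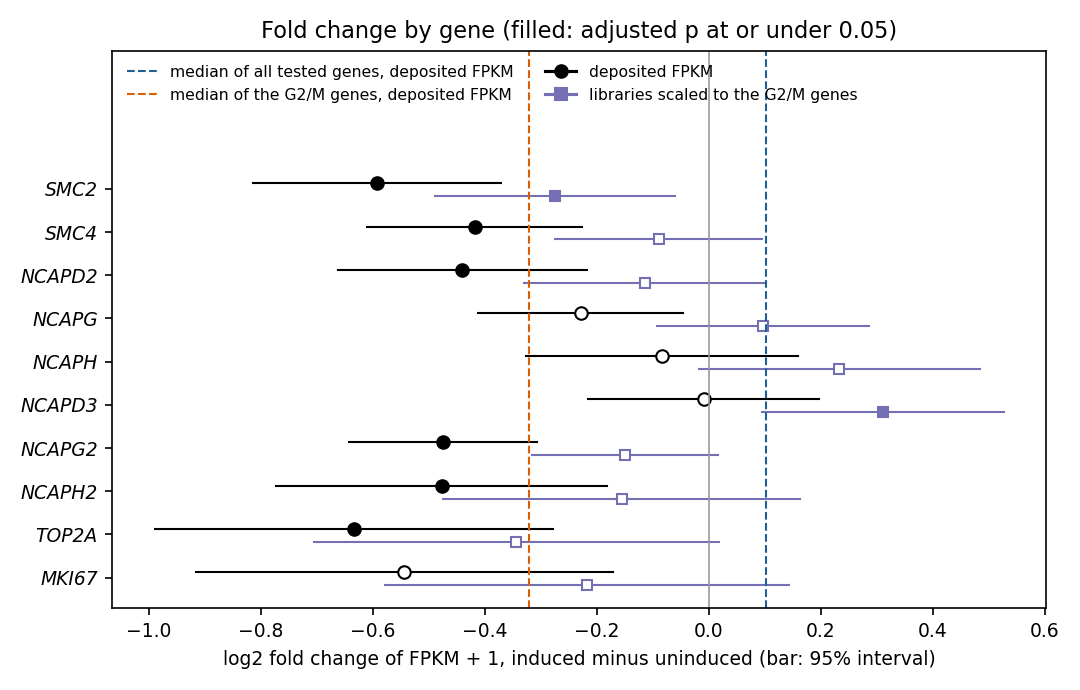
Log2 fold change of Ras-induced over control cells on the log2(FPKM + 1) scale with 95% confidence intervals from limma, for the deposited FPKM (black circles) and for libraries scaled to the G2/M genes (purple squares), filled where altered, with dashed lines at the medians of all tested genes (0.10) and of the G2/M genes (-0.32). On the deposited scale 6 genes are altered and lower, and after scaling only SMC2 is lower and NCAPD3 higher.

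Ratios between the matching subunits of the complexes were taken within each library. The level of NCAPD2 was 2.78, 2.45 and 2.80 times that of NCAPD3 in the control libraries and 2.00, 1.91 and 2.01 times in the Ras-induced libraries. This ratio did not overlap between the groups and was lower by 0.44 on the log2 scale. The ratio of NCAPG to NCAPG2 moved the other way, from 1.20, 1.25 and 1.17 in control to 1.36, 1.503 and 1.45 in Ras-induced libraries, again without overlap. The kleisin ratio, NCAPH over NCAPH2, overlapped, with 0.520, 0.528 and 0.707 in control and 0.784, 0.675 and 0.848 in Ras-induced libraries. So did the mean level of the condensin I subunits over that of the condensin II subunits, which was 1.32, 1.28 and 1.43 in control and 1.40, 1.36 and 1.46 in Ras-induced libraries. These ratios are given as a description, with no share over other pairs of genes. Separation of the groups was common for single genes, with 1788 of the 13993 lower and 3789 higher in every Ras-induced library than in any control library. TOP2A was 0.249, 0.234 and 0.196 times its paralog TOP2B, the topoisomerase IIβ of all cells, in control and 0.161, 0.140 and 0.111 times in Ras-induced libraries, a ratio without overlap. TOP2B itself was 42.6 ± 2.77 FPKM in control and 42.9 ± 3.87 FPKM in Ras-induced cells (limma adjusted p = 0.959).

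**Figure D3:**
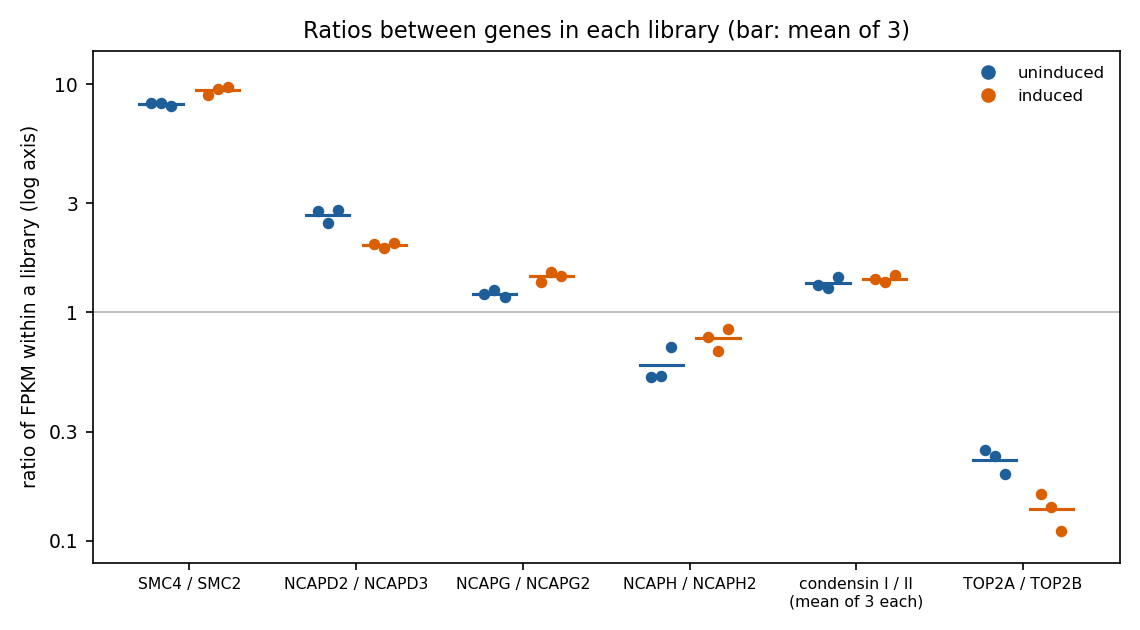
Ratios of FPKM between genes in each of the 3 control and 3 Ras-induced libraries, with a point for each library and a bar at the group mean. SMC4 over SMC2 and NCAPG over NCAPG2 are higher in every Ras-induced library, NCAPD2 over NCAPD3 and TOP2A over TOP2B are lower, and the other ratios overlap.

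The order of levels was much the same in both groups. In control cells it ran SMC4, MKI67, NCAPD2, NCAPG, NCAPG2, NCAPH2, NCAPD3, SMC2, NCAPH and TOP2A, and the neighbours NCAPD2 and NCAPG, and NCAPD3 and SMC2, overlapped in range. In Ras-induced cells SMC2 stood below NCAPH, NCAPD3 beside NCAPH2 and NCAPG above NCAPD2, and the overlapping neighbours were MKI67 and NCAPG, and NCAPD3 and NCAPH2. SMC4, with a mean of 236 FPKM over the 6 libraries, was above 45 of the 50 other G2/M genes. TOP2A, at 7.75 FPKM, was above only 1 of the 50, which was CDK1 at 3.21 FPKM, while the median of the list was 89.5 FPKM. Why the deposited values of TOP2A and CDK1 are so low was not tested, and the ratio of TOP2A to TOP2B rests on such values.

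The lower levels were shared by other genes of the same phase of the cell cycle, and S phase genes had a lower median still. Of the 50 other G2/M genes 25 were altered, all lower, against 5.67% of all tested genes, with a median log2 fold change of -0.32. The count was 14, 11, 11 and 12 without control library 1, control library 2, Ras-induced library 1 or Ras-induced library 3, and 22 and 20 without the other libraries. The summed level of the 50 genes was 6034 to 6241 FPKM in control and 4837 to 5157 FPKM in Ras-induced libraries. The largest falls were those of HMGB2, a chromatin protein that bends DNA (390.5 to 200.1 FPKM, log2 fold change -0.96, limma adjusted p = 0.00278), LBR, the lamin B receptor (66.2 to 38.0 FPKM, -0.77, limma adjusted p = 0.0129) and CDCA3, a trigger of mitotic entry (69.1 to 43.2 FPKM, -0.67, limma adjusted p = 0.00990). Of 42 S phase genes tested 24 were lower and 1 higher, with a median of -0.56. When the libraries were scaled to the mean level of the 50 G2/M genes, the median of all tested genes was 0.39 and that of the 10 genes was -0.13. On that scale SMC2 passed the threshold as lower (-0.27, limma adjusted p = 0.0409). Relative to the G2/M genes NCAPD3 was higher (0.31, 95% confidence interval 0.10 to 0.53, limma adjusted p = 0.0273), though below the median of all tested genes on that scale, and NCAPG and NCAPH had positive signs (0.10 and 0.23). On that scale 3.13% of all tested genes were lower and 47.1% higher. With so many genes called, the adjusted threshold admits weaker differences than on the deposited scale, and the calls of SMC2 and NCAPD3 rest on it. The other 8 of the 10 genes, SMC4, NCAPD2, NCAPG2, NCAPH2 and TOP2A included, did not pass the threshold relative to the G2/M genes (limma adjusted p from 0.0987 to 0.358).

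**Figure D4:**
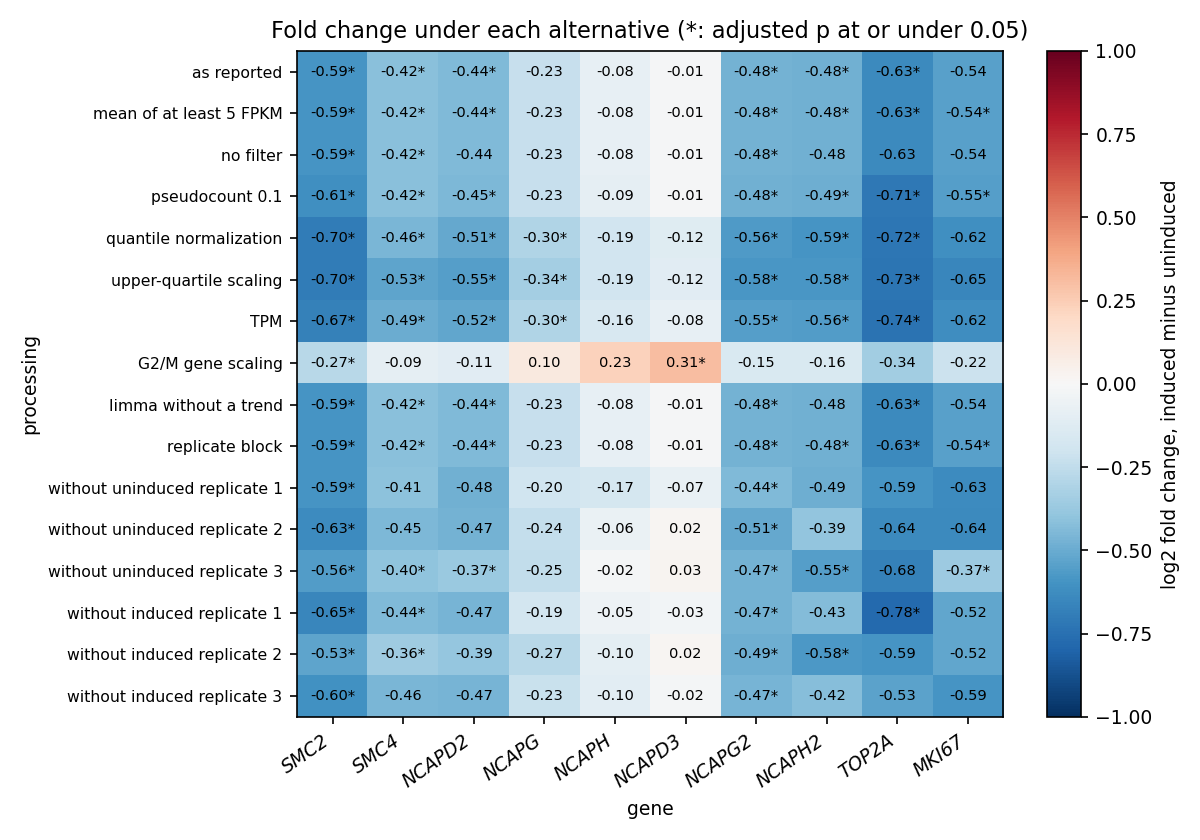
Log2 fold change of each of the 10 genes (columns; colour and printed value, Ras-induced minus control) as reported and under each other way of processing (rows), with an asterisk at an adjusted p at or under 0.05. The signs of NCAPG, NCAPH and NCAPD3 turn positive under the scaling to G2/M genes, that of NCAPD3 also without control library 2 or 3 or Ras-induced library 2, and those of the 6 altered genes stay negative throughout.

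Lists of genes that act with condensin, Ki-67 or TOP2A were compared with all tested genes, of which 16.7% were altered. By direction, 5.67% were lower and 11% higher. With both directions pooled, the shares in the lists were near that of all tested genes. The median log2 fold change of the 14 partners in chromosome condensation was -0.09. Of these partners 2 (14.3%) were altered, both lower, against 5.67% of all tested genes that were lower. These were KIF4A, the chromokinesin that works with condensin I on the axis (76.4 ± 1.16 to 56.5 ± 3.04 FPKM, -0.43, limma adjusted p = 0.0125), and PLK1, the mitotic kinase that phosphorylates condensin II (213.8 ± 9.14 to 177.7 ± 5.69 FPKM, -0.27, limma adjusted p = 0.0475). Among 12 partners of Ki-67 and proteins of the chromosome periphery 2 (16.7%) were altered and both were higher, PES1 (52.1 ± 5.76 to 69.7 ± 5.15 FPKM, limma adjusted p = 0.0428) and BOP1 (21.9 ± 1.43 to 30.1 ± 4.01 FPKM, limma adjusted p = 0.0471), both of which are ribosome biogenesis factors. Of the 5 other topoisomerases TOP1MT, the mitochondrial enzyme, was higher (6.43 ± 0.909 to 11.1 ± 0.492 FPKM, log2 fold change 0.70, limma adjusted p = 0.0116).

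Of the 14 regulators of G2/M promoters 5 (35.7%) were altered, against 16.7% of all tested genes. Of these 3 were lower and 2 higher, where 5.67% and 11% of all tested genes were. MYBL2, the MYB subunit of the activating complex, fell the most of these, from 51.7, 57.1 and 44.6 FPKM in control to 11.4, 17.4 and 10.1 FPKM in Ras-induced libraries, which do not overlap (log2 fold change -1.93, SE 0.20, limma adjusted p = 0.00338). RBBP4, a subunit of the MuvB core, fell from 50.9 ± 0.609 to 30.2 ± 5.01 FPKM (limma adjusted p = 0.0110), and RBL1, the p107 pocket protein, from 2.96 ± 0.298 to 1.63 ± 0.289 FPKM (limma adjusted p = 0.0457). NFYA, which binds the CCAAT box, was higher, at 21.5 ± 0.755 against 16.9 ± 1.08 FPKM (limma adjusted p = 0.0431). FOXM1, a forkhead factor of G2/M genes, was measured at 172, 163 and 128 FPKM in control and at 120, 117 and 115 FPKM in Ras-induced libraries, and was not altered (limma adjusted p = 0.0694).

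The genes most like the condensin subunits were taken from the 7871 genes averaging 10 FPKM or more by the Pearson correlation over the 6 libraries with the mean log2 level of the 8 subunits. These were PRC1 (r = 0.9989), CORO1C (0.9971), TMEM109 (0.9956), ORC3 (0.9951) and PEAR1 (0.9945). The libraries share a group contrast, so the values describe these 6 libraries and carry no test. PRC1, which bundles the microtubules of the anaphase midzone, was at 294, 297 and 321 FPKM in control and at 191, 189 and 194 FPKM in Ras-induced libraries.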

How the data were processed

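RNA-seq of mitotic ERRAS cells was analysed in 6 libraries, 3 for each group. The authors trimmed reads (Trim Galore 0.3.0), aligned them to hg19 with TopHat2 and deposited FPKM values made with Cufflinks, whose own scaling between libraries is not given in the sources used here. FPKM already contains a division by library size, so a change in a few abundant genes moves all others. Column names give a group and number without a sample, and 18 columns without a name were not used. A second header line was dropped, and 120 genes with more than 6 values, none of them described here, were left out. A deposited Cuffdiff table of the authors' own comparison (group values, fold changes, p-values and q-values) was not used.

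The 13993 genes averaging 1 FPKM or more were fitted as log2(FPKM + 1) in limma 3.58.1 under R 4.3.3 (two-sided, eBayes with trend), and p-values were adjusted over all of them by the Benjamini-Hochberg method. Fold changes and intervals come from that fit, and levels and ratios from the FPKM values. Positions and overlaps are from GENCODE on GRCh37, and promoters from RefSeq. Figures were made in Python 3.11.15, and cell cycle lists are those of Seurat 5.3.0. The procedure was tested on simulated data. The 10 genes and all lists were chosen with earlier results of these data known. The text names the 10 genes, HRAS and the ERK targets, from each list up to 4 altered genes with the largest change (from the G2/M list the 3 largest falls and rises), and the 5 most correlated genes. TRIM59, MRPL51, IFT80, LCORL, JAM3, VPS26B, SCO2, FOXM1, E2F4, SMC3, SMC5, TOP2B, FEN1 and CDK1 were named after their values were seen. Alternatives were another pseudocount (0.1), other filters, quantile, upper-quartile, TPM and G2/M gene scaling, no trend, a replicate block, a stricter threshold and each library left out.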

Additional observations from a re-analysis of the deposited data

How the results depend on the processing

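Main counts were 6 genes of the list lower and none higher, 2336 tested genes altered and 64 altered genes on the context lists. Without the filter on low values 3 of the 10 genes were lower and 1518 genes altered, with more genes tested. At an adjusted p at or under 0.01 these were 1 (NCAPG2) and 601, and 18 on the context lists. Scaling to G2/M genes left 1 lower (SMC2) and 1 higher (NCAPD3), with 7035 genes altered, and turned the log2 fold change of NCAPG to 0.10, NCAPH to 0.23 and NCAPD3 to 0.31. The altered genes were 1543 higher and 793 lower in the main fit, 1044 and 1109 after quantile normalization, 921 and 1101 after upper-quartile scaling, 1024 and 938 as TPM, and 6597 and 438 after G2/M gene scaling. The 3 scalings other than to G2/M genes each called 7 of the 10 genes lower, with NCAPG added. Leaving out each library in turn gave 2 to 6 of the 10 genes lower, 998 to 1956 genes altered and 27 to 54 on the context lists, with fewer libraries in each fit, and a log2 fold change of NCAPD3 from -0.075 to 0.029. MKI67 passed the threshold with a mean of at least 5 FPKM, with a pseudocount of 0.1, with the replicate block and without control library 3, and NCAPH2 did not pass it in limma without a trend.

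The columns number the libraries 1 to 3 in each group. After subtraction of the group mean, libraries with the same number correlated across genes at -0.0027, 0.0433 and 0.0481, so the numbers were not taken to pair the libraries. With the replicate block 2310 genes were altered and 7 of the 10 genes lower, MKI67 added (limma adjusted p = 0.0354), and no call among the 10 was lost. Among other genes named as altered, HRAS, PLK1, STAG1, SMC6, RBL1, NFYA, E2F4 and FEN1 did not pass with the block (limma adjusted p from 0.0514 to 0.0703). The context lists held 59 altered genes with the block, against 64 without it, with calls both lost and gained.

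Precision is limited by 3 libraries in each group and by a depth estimated only in relative terms. The intervals of NCAPH (-0.33 to 0.16) and NCAPD3 (-0.22 to 0.20) include falls and rises of modest size.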

Other observations

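The SMC complexes related to condensin were measured in the same libraries. Of 10 cohesin genes 3 were lower, against 5.67% of all tested genes, with a median log2 fold change of -0.11: SMC1A, an ATPase of the ring, fell from 68.1 ± 4.14 to 42.2 ± 1.94 FPKM (log2 fold change -0.68, limma adjusted p = 0.00449), RAD21, its kleisin, from 225.6 ± 17.7 to 164.7 ± 6.37 FPKM (-0.45, limma adjusted p = 0.0161), and STAG1 from 25.8 ± 0.362 to 19.6 ± 2.04 FPKM (-0.39, limma adjusted p = 0.0381). SMC3, the partner of SMC1A in the ring, was 30.4 ± 0.463 FPKM in control and 25.3 ± 0.631 FPKM in Ras-induced cells, just outside the threshold (limma adjusted p = 0.0501). Of 6 genes of the SMC5/6 complex, which acts in DNA repair, SMC6 passed the threshold (17.8 ± 0.492 to 14.1 ± 0.271 FPKM, -0.32, limma adjusted p = 0.0342) and SMC5 just missed it with a fold change of like size (19.8 ± 1.23 and 15.6 ± 1.22 FPKM, -0.33, limma adjusted p = 0.0560). The share called, 1 of 6, equals the 16.7% of all tested genes altered in either direction, while 5.67% were altered and lower. The median of the SMC5/6 list was -0.01. Among the regulators of G2/M promoters E2F4, the E2F of the DREAM complex, was higher (48.5 ± 3.90 to 60.9 ± 2.59 FPKM, limma adjusted p = 0.0461).

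The largest changes among the altered S phase genes were falls of CDCA7, a MYC and E2F target (14.3 ± 2.75 to 2.47 ± 0.529 FPKM, limma adjusted p = 0.00197), TYMS, thymidylate synthase (88.4 ± 3.73 to 27.6 ± 6.64 FPKM, limma adjusted p = 0.00279), WDR76 (9.77 ± 2.11 to 2.91 ± 0.629 FPKM, limma adjusted p = 0.00656) and MCM6, a subunit of the replicative helicase (8.91 ± 1.58 to 3.09 ± 0.171 FPKM, limma adjusted p = 0.00384). FEN1, the flap endonuclease, was the single S phase gene that was higher (37.8 ± 0.663 to 46.6 ± 1.40 FPKM, limma adjusted p = 0.0330). The low level of TOP2A and of CDK1 was at the bottom of the G2/M list, in which the highest gene reached 528 FPKM. CDK1 was 3.68 ± 1.99 FPKM in control and 2.73 ± 1.02 FPKM in Ras-induced cells (limma adjusted p = 0.597).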
